A study of Drosophila melanogaster with 2 samples.

Results

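The insulator protein genes described here are 10 Drosophila genes chosen by name: CTCF, su(Hw), pita, ZIPIC, Ibf1, Ibf2, Cp190, mod(mdg4), Chro and fs(1)h. They are 10 of the 13968 protein-coding genes on the main chromosome arms, and all of them were found by symbol in the annotation. These genes, the other genes listed below and the motifs were chosen with earlier results of these data known. Their counts beside shares over all genes or peaks are therefore descriptions and not independent evidence. The 10 genes were examined in a chromatin immunoprecipitation with sequencing (ChIP-seq) experiment on the protein CG8478. The flies carried a CG8478-eGFP fusion, in which CG8478 is joined to a green fluorescent tag, and whole embryos aged 0 to 24 h were used. Chromatin, sonicated to 200 to 800 bp, was immunoprecipitated through the tag with anti-GFP antibody. There was 1 group, CG8478-eGFP embryos, with 2 biological replicates, and both replicates carried the tagged protein. Per the file headers, peaks were called against 1 control alignment. A whole embryo pools all cell types and a collection of this length pools all embryonic stages, so binding in more cells and stronger binding per cell cannot be told apart. What distinguishes the replicates beyond their number is not stated, and no comparison between groups could be made.

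Insulator proteins bind DNA elements that limit which enhancers reach which promoters, and many of them sit at the borders of chromatin domains. In Drosophila the zinc finger proteins CTCF, Su(Hw), Pita and ZIPIC and the paired factors Ibf1 and Ibf2 contact DNA directly. They bring in Cp190, a cofactor with a BTB domain, and Su(Hw) also works with Mod(mdg4), a second BTB protein. Chromator, the product of Chro, is found in the interbands of polytene chromosomes and at domain borders, and fs(1)h encodes the fly BET protein, whose bromodomains bind acetylated histones. BEAF-32, another insulator protein, binds short elements with the letters CGATA, and DREF binds the DNA replication-related element (DRE), whose core TATCGATA contains CGATA on both strands. Both factors are known at promoters of broadly expressed genes.

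A promoter peak is here a peak whose summit, its highest point, is at most 500 bp from the start of an annotated transcript. Of the 10 insulator protein genes, 8 had a promoter peak in the conservative list, the list made from both replicates together. Over all protein-coding genes 22.6% had one (3152 of 13968, 95% Wilson interval 21.9 to 23.3). The genes without a promoter peak were su(Hw) and ZIPIC. Ibf1 and Ibf2 shared 1 peak, so the 8 genes rested on 7 leading peaks, the highest of each gene.

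Of the 8-letter motifs searched, the DRE core was found at the most of these start sites, and its surroundings are printed here for 5 of the genes that hold it. Each stretch has 30 bases, is written 5′ to 3′ on the strand of the gene, and has the DRE core in capitals. Sequences are from the RefSeq copy of the Release 6 genome (dm6). The CTCF stretch is chr3L:7356716-7356745 (minus strand) and the Cp190 stretch is chr3R:15275227-15275256 (minus strand). The mod(mdg4) stretch is chr3R:21377437-21377466 (minus strand). The Ibf1 stretch is chr3R:9258913-9258942 (plus strand) and the Ibf2 stretch is chr3R:9258490-9258519 (minus strand).
CTCF: accaatcgaacTATCGATAgctggcggtac
Cp190: tatcgcatggcTATCGATAgctgccgagcg
mod(mdg4): atattttaagcTATCGATAtattgtcactt
Ibf1: caaaatggtttTATCGATAtgtcgatacat
Ibf2: cgatggcatgtTATCGATAcatcggttgaa

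The centre of the core lay 0.5 bp from the annotated start site of Cp190 and 3.5 bp from that of Ibf2. It lay 17.5 bp upstream of the start of CTCF, 36.5 bp upstream of that of Ibf1 and 50.5 bp upstream of that of mod(mdg4). The letters around the core differed among the 5 genes.

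Longer stretches are shown for 4 genes that span the range of signals: fs(1)h with the highest leading peak, CTCF with an intermediate one, Chro with the lowest, and ZIPIC with none past the threshold. All are upstream of the start site, outside annotated exons and transposable elements, and on the gene's minus strand. The fs(1)h stretch (chrX:8061437-8061644) and the Chro stretch (chr3L:22878985-22879088) each fill the space up to the start of the divergent neighbour. The CTCF stretch is chr3L:7356714-7356855 and the ZIPIC stretch is chr3R:30036871-30037002. Capitals mark the DRE core, CGATA, motif 1 (GGTCACAC) and motif 7 (CATCNCTA), each on either strand.
fs(1)h: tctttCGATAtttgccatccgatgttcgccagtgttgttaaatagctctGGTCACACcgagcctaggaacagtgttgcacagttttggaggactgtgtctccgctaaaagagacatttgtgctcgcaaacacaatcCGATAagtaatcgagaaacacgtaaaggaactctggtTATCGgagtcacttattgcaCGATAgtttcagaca
CTCF: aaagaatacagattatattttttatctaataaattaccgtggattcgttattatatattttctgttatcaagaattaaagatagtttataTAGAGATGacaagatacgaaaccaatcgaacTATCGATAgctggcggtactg
Chro: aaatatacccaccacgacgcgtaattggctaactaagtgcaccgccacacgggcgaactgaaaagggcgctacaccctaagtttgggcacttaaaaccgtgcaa
ZIPIC: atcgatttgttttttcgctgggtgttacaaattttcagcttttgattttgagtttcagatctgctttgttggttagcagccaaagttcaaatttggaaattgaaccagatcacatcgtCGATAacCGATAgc

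The fs(1)h stretch held 4 CGATA matches and 1 match to motif 1, with no DRE core. The CTCF stretch held a DRE core and a motif 7 match. The Chro stretch held none of the 4 motifs. The ZIPIC stretch held 2 CGATA matches close to its start site.

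The deposited signal of a peak comes from the authors' peak caller, and its scale is not stated. It was used only to describe and rank peaks within a list. The conservative list held 2904 peaks on the main arms, of which 2577 were promoter peaks with a median signal of 142.23 and quartiles of 82.29 and 254.48. Beside each peak the deposited ranked list gives the signal in both inputs of the comparison. These inputs were equal to replicate 1's own entries and to replicate 2's own entries for 2890 of the 2904 peaks, so they are called replicate 1 and replicate 2 here. Read counts are not among these values, so the depth of the libraries is unknown.

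Of the 6 genes of DNA-binding insulator proteins, CTCF, pita, Ibf1 and Ibf2 had a promoter peak. CTCF, the fly form of the vertebrate insulator protein, lies at chr3L:7353578-7356713 on the minus strand (FBgn0035769). Its promoter peak had a signal of 115.82 in replicate 1, 94.09 in replicate 2 and 207.23 in the conservative list. That signal exceeded 65.9% of the promoter peaks. The summit lay 42 bp upstream of the only annotated start site. The peak is 404 bp wide, the width of 59.8% of all conservative peaks. Its upstream side runs into 2 annotated fragments of the transposable element Quasimodo, over 27 bp and 54 bp. Whether reads from repeated copies add to the signal was not tested.

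The gene pita encodes a zinc finger protein of the bithorax region boundaries and lies at chr2R:23548967-23554712 on the minus strand (FBgn0034878). It was the only member with more than 1 promoter peak, and it had 3. The highest had 145.46 in replicate 1 and 125.67 in replicate 2, with 267.2 in the conservative list and its summit 114 bp downstream of the first start site. A second, at its other start site, had 91.2 in replicate 1 and 131.15 in replicate 2, with 220.37 in the conservative list. That summit lay 256 bp into pita but only 18 bp from the start of Dcp-1, an effector caspase gene on the opposite strand. The third peak overlapped the highest one almost fully, with its summit 87 bp upstream of the first start site. It had 97.74 in replicate 1 and 30.55 in replicate 2, with 97.88 in the conservative list. Its log2 ratio of replicate 1 to replicate 2 of 1.68 was higher than in 99.0% of promoter peaks, and it was not in the larger, optimal list. In replicate 1's own ranking the entry at this summit had an IDR of 0.0421, over the threshold of 0.01. IDR, the irreproducible discovery rate, is the authors' measure of how poorly a peak's rank repeats between 2 inputs. For the list of both replicates the inputs are the replicates. In a replicate's own ranking they are other values, such as 58.96 and 51.99 for CTCF in replicate 1. An IDR from a replicate's own ranking, here and below, therefore does not compare the replicates. The third peak therefore counts as found in replicate 1's list only because it overlaps its neighbour.

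Ibf1 and Ibf2 encode zinc finger proteins that act as a pair, and they are transcribed away from each other from start sites 463 bp apart. Ibf1 lies at chr3R:9258964-9260400 on the plus strand (FBgn0037670) and Ibf2 at chr3R:9257727-9258501 on the minus strand (FBgn0037669). Their shared conservative peak had 120.62 in replicate 1 and 103.2 in replicate 2, and 198.56 in the conservative list. The summit lay 17 bp upstream of Ibf2 and 446 bp upstream of Ibf1, so the peak sat at the Ibf2 end of the interval. A further entry had its summit 35 bp inside Ibf1, with 24.54 in replicate 1, 58.92 in replicate 2 and 60.32 for both. Its IDR was 0.016, just over the threshold. It was in the optimal list and in replicate 2's own list, where its IDR was 0.000113, but not in replicate 1's, where the IDR was 0.806. With a 250 bp window, or with each peak given only to its nearest start site, Ibf1 had no promoter peak in the conservative list.

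The remaining DNA-binding genes had no promoter peak. At ZIPIC, a zinc finger partner of Cp190 at chr3R:30035240-30036870 on the minus strand (FBgn0039740), the highest ranked entry had 26.62 in replicate 1 and 20.26 in replicate 2. For both replicates the signal was 47.39, higher than in 96.2% of the 113092 ranked entries on the main arms, and the IDR was 0.0335. In the replicates' own rankings the IDR was 0.186 in replicate 1 and 0.884 in replicate 2. Its summit lay 122 bp downstream of the start site. The nearest conservative peak was 2826 bp away, at the promoter of Sry-beta, another zinc finger gene, and had a signal of 826.16.

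At su(Hw), which encodes the zinc finger protein of the gypsy insulator and lies at chr3R:14304455-14308589 on the minus strand (FBgn0003567), the values were lower. The highest ranked entry had 9.98 in replicate 1 and 3.03 in replicate 2, and 14.6 for both replicates, with an IDR of 0.903. That signal exceeded 45.4% of the ranked entries, whose median was 15.87. The nearest conservative peak was 18431 bp from the start site. For both replicates together ZIPIC was therefore nearer to the threshold than su(Hw), whose entry had IDR values of 0.916 in replicate 1 and 0.943 in replicate 2. An absent peak does not show absent binding, since the depth is unknown.

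The cofactor genes both had peaks above the promoter median. Cp190 lies at chr3R:15270432-15275241 on the minus strand (FBgn0000283). Its peak had 127.28 in replicate 1 and 106.89 in replicate 2, with 230.06 in the conservative list, above 70.8% of promoter peaks. The summit was 5 bp downstream of the first start site, in an untranslated exon, and the peak was 203 bp wide. CG4338 starts 281 bp away on the opposite strand and shares the peak.

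The gene mod(mdg4) lies at chr3R:21350846-21377401 on the minus strand (FBgn0002781) and makes many protein isoforms with a common BTB domain by trans-splicing. Its promoter peak had 183.32 in replicate 1, 129.71 in replicate 2 and 311.35 in the conservative list, with the summit 76 bp upstream of the start site. Inside the gene there were 2 more conservative peaks. A peak in an intron had 73.87 in replicate 1 and 68.37 in replicate 2, with 138.35 in the conservative list. It lies among the alternative 3′ exon units, 88 bp from the start of pre-mod(mdg4)-T and 320 bp from that of pre-mod(mdg4)-B, units annotated as genes of their own. The annotation has 23 such units with 7 distinct start sites, and 10 units at 2 start sites had a promoter peak, all of them this one. The other peak lay in an intron 860 bp downstream of the promoter, with 38.83 in replicate 1, 26.45 in replicate 2 and 54.57 in the conservative list. It was in neither replicate's own list.

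The chromatin genes marked both ends of the range. fs(1)h lies at chrX:8037808-8061436 on the minus strand (FBgn0004656) and had the highest leading peak, with 157.29 in replicate 1, 242.78 in replicate 2 and 377.08 in the conservative list. It was the only leading peak of the 7 that was higher in replicate 2. Its log2 ratio of replicate 1 to replicate 2 was -0.63, against a median of 0.17 over all promoter peaks, and lower ratios were found in 5.5% of them. The summit lay 113 bp upstream of fs(1)h and 96 bp from the start of mys, the βPS integrin gene, which runs the other way. Of the 5 annotated start sites of fs(1)h, 1 had a peak. At another, an entry with a signal of 53.95 had an IDR of 0.0127 and stayed out of the list.

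Chro lies at chr3L:22873702-22878984 on the minus strand (FBgn0044324). Its peak had 34.18 in replicate 1 and 27.1 in replicate 2, and 64.35 in the conservative list, which exceeded 14.8% of promoter peaks. The IDR was 0.00458, inside the threshold. Chro was the only member whose peak was in neither replicate's own list, with IDR values of 0.0402 in replicate 1 and 0.0709 in replicate 2. The summit lay 66 bp downstream of the first start site, and Ssl1, a subunit gene of the transcription factor TFIIH, starts 105 bp from that site in the other direction. Of the 3 annotated start sites of Chro, 2 were within 500 bp of the summit.

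**Figure D1:**
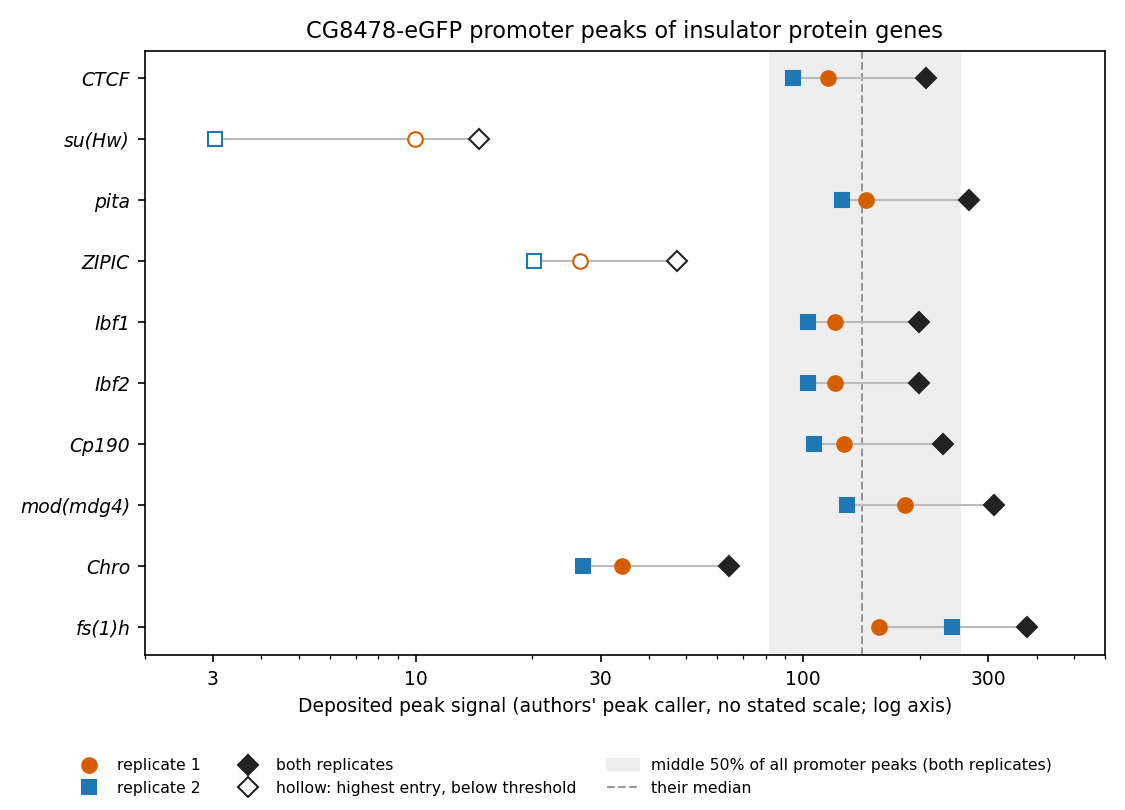
Deposited peak signal (log axis, scale not stated) at each insulator protein gene in replicate 1 (circles), replicate 2 (squares) and both together (diamonds), with hollow marks for the highest entry of a gene without a promoter peak and a grey band for the middle 50% of all promoter peaks. Apart from Chro at 64.35, the filled diamonds lie at 198.56 or more, to the right of the promoter median of 142.23, and su(Hw) lies far to the left at 14.6.

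Among the 7 leading peaks the median signal was 230.06, against 142.23 over all promoter peaks, and 6 of the 7 were above that median. Only the highest peak of each gene enters the first value, while all promoter peaks include lower ones of the same genes. In the conservative list the order was fs(1)h, mod(mdg4), pita, Cp190, CTCF, Ibf1 with Ibf2, and Chro. The ranges spanned by the replicates overlapped for fs(1)h and mod(mdg4), for mod(mdg4) and pita, and for pita and Cp190. Those of Cp190, CTCF and the shared Ibf1 and Ibf2 peak overlapped one another as well. Chro did not overlap any other, and both of its values were under 35. With 2 replicates and no scale for the signal, no test of these neighbours was made.

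The 2 replicates gave the same members a promoter peak. Replicate 1's own list gave 7 of 10 members a promoter peak, against 19.5% of protein-coding genes. Replicate 2's own list also gave 7 of 10, against 18.8%. Chro was lost in each of them, and the other bound members were kept in each. The optimal list gave 8 of 10, against 23.5%, and among the upper 50% of conservative peaks by signal 7 of 10 kept a promoter peak, against 14.0%. Of the 7 leading peaks, 6 overlapped a peak of both replicates by at least 1 bp. Among all promoter peaks 68.9% did so, and 13.7% overlapped a peak of neither.

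**Figure D2:**
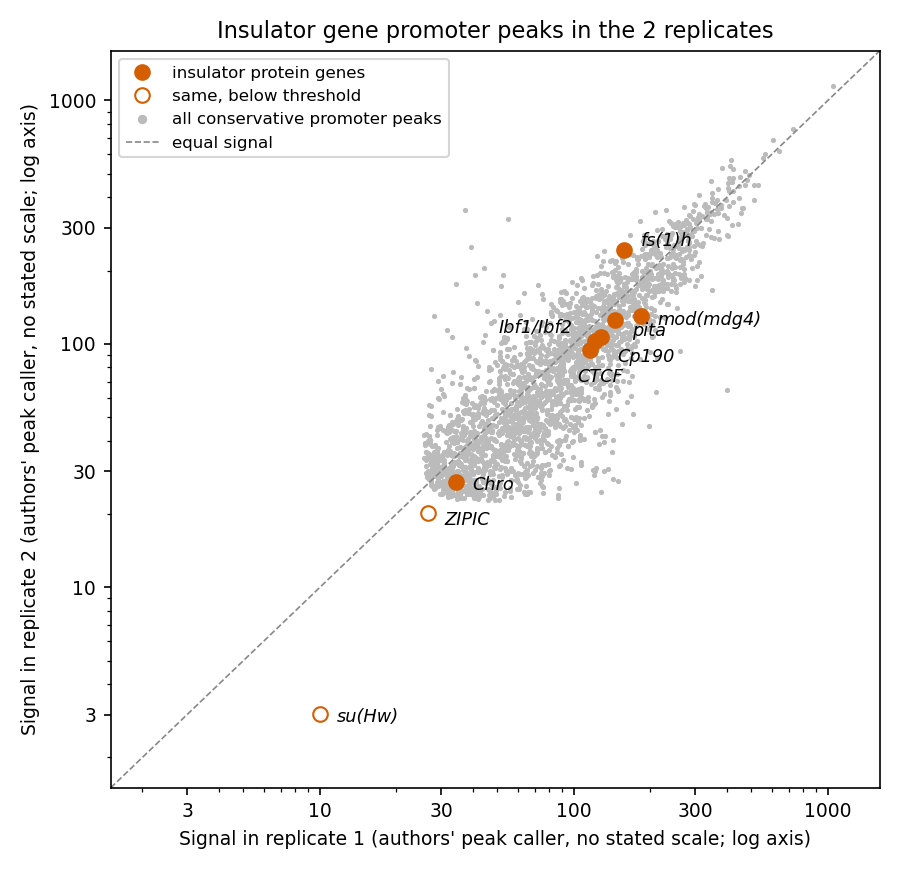
Deposited signal in replicate 2 (y axis) against replicate 1 (x axis), both on log axes with no stated scale, for the leading peaks of the insulator protein genes (orange, hollow for entries below the threshold) and all conservative promoter peaks (grey). Every orange point except fs(1)h lies below the dashed line of equal signal, and ZIPIC at 26.62 and 20.26 lies at the lower edge of the grey cloud.

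Motif content was read on both strands, up to 100 bp to either side of the summit or start site, for 11 short motifs. Around the 7 leading summits the DRE core TATCGATA was found in 4, those of CTCF, Cp190, mod(mdg4) and the shared Ibf1 and Ibf2 peak. Over all promoter summits the share was 29.4% (757 of 2577). Around start sites it was found at 6 of the 10 members, the 5 genes of these peaks and pita, against 7.8% of the first start sites of protein-coding genes. At pita the core lay 178.5 bp from the leading summit and 22.5 bp from that of the third peak. All 6 had a promoter peak, as had 76.9% of the 1094 genes with the core there. The peak counted for Ibf1 did not lie at the core of Ibf1. Its summit was 446 bp upstream of the Ibf1 start, at the core of Ibf2, and the entry nearest the Ibf1 start missed the threshold (IDR 0.016). Of the 4 members without the core, 2 had a promoter peak (Chro and fs(1)h), against 18.0% of the genes without it.

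The shorter CGATA, which also counts inside every DRE core, was in all 7 leading peaks against 76.4% of promoter summits. With 50 bp to either side it was in 6 of the 7, since the pita window then held none of the 11 motifs. At start sites it was found at all 10 members against 39.3% of genes. It was therefore also present at su(Hw) and ZIPIC, which had no peak. Of all genes with CGATA at the start site 42.3% had a promoter peak, and of those without it 9.8%.

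Motif 1 (GGTCACAC), the element bound by M1BP, was in 1 leading peak, that of fs(1)h, against 8.7% of promoter summits. At start sites it occurred at 2 members against 6.7% of genes, and these were su(Hw) and ZIPIC, the genes without a peak. Of all genes with motif 1 at the start site 35.5% had a promoter peak, against 21.6% of the genes without it. Motif 7 (CATCNCTA) was in the peaks of CTCF and pita, 2 of 7, against 15.6% of promoter summits.

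The other motifs gave counts of few peaks. The TATA box TATAAA was in 3 of the 7 leading peaks against 25.3% of promoter summits, and the initiator letters TCAGT in 3 against 30.1%. The E-box CAGCTG was in 1 against 14.4%, and the Su(Hw) core TGCATA in 1, that of pita, against 9.4%. None of the 7 held the GAGA element GAGAG, against 17.5%, motif 6 (GTATNTTT), against 10.4%, or the CTCF core AGGNGGC, against 6.9%. A match is a description of the letters and not a bound site, and 7 peaks are too few to set counts of 0 or 1 apart from such shares.

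**Figure D3:**
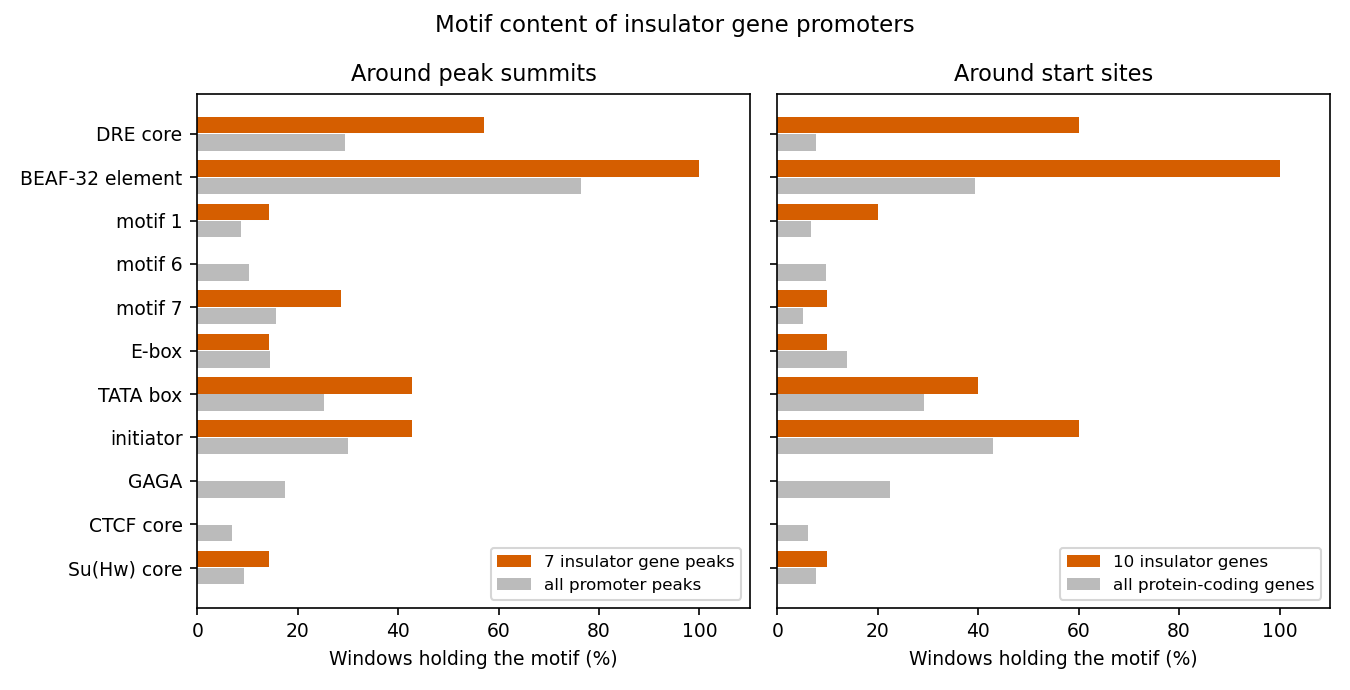
Share of windows (100 bp to either side) that hold each motif, around peak summits (left, 7 insulator gene peaks in orange and all 2577 promoter peaks in grey) and around start sites (right, 10 insulator genes in orange and all 13968 protein-coding genes in grey). The widest gaps are at start sites, for the DRE core (6 of 10 against 7.8%) and for CGATA, drawn as the BEAF-32 element (10 of 10 against 39.3%).

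In position, 6 of the 10 members had a closely spaced divergent neighbour. A protein-coding gene on the opposite strand started within 500 bp upstream of them, and of 26.4% of all protein-coding genes. The spacing was 105 bp at Chro, 209 bp at fs(1)h, 281 bp at Cp190, 463 bp between Ibf1 and Ibf2 and 500 bp at su(Hw). Of these 6 genes 5 had a promoter peak, against 46.3% of all genes with such a neighbour. Of the 4 without one 3 had a peak, against 14.1%. At a divergent pair a summit within 500 bp of both starts counts for both genes. When each peak was given to its nearest start site only, 6 of 10 members kept a promoter peak against 16.2% of genes, and Ibf1 and fs(1)h lost theirs to Ibf2 and mys.

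**Figure D4:**
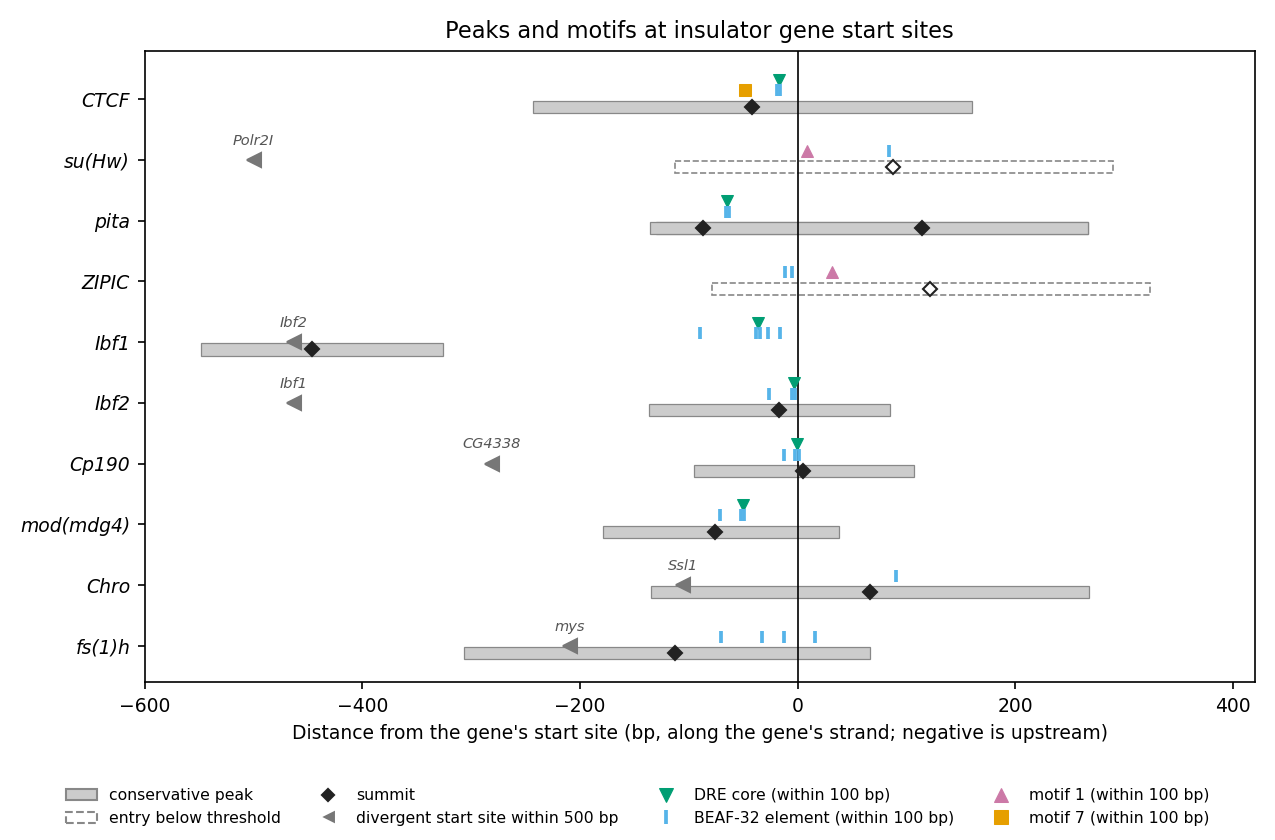
Conservative peaks (grey bars) with their summits (diamonds) at the first start site of each insulator protein gene, in bp along the gene's strand, with dashed bars for entries below the threshold, triangles pointing left for divergent start sites and coloured marks for motifs within 100 bp of the start. The DRE core lies within 30 bp of a summit at CTCF, Cp190, mod(mdg4), Ibf2 and, for the lowest of its peaks, pita, while the peak counted for Ibf1 lies 446 bp upstream at the Ibf2 start.

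Beyond these 10 genes, 21 others were listed: genes of insulator and architectural proteins, and CG8478, the gene of the tagged protein. Of these 21, 10 had a promoter peak, CG8478 among them, against 22.6% of all protein-coding genes. The boundary factor gene BEAF-32 had 120.14 in replicate 1 and 115.42 in replicate 2, with 248.9 in the conservative list. That summit lay in a coding exon, 314 bp downstream of a start site. A second BEAF-32 peak, 23 bp upstream of another start site, had 81.75 in replicate 1, 130.97 in replicate 2 and 170.36 in the conservative list. JIL-1, the gene of an interband histone kinase that binds Chromator, had 266.87, and pzg, whose product also binds Chromator, had 128.54. The zinc finger gene dwg, which encodes the insulator protein Zw5, had 170.59, and HIPP1, named for its interaction with HP1 and insulator proteins, had 115.62. Lam, a nuclear lamin gene, had 277.65. CG8478 itself had 318.28, with the summit 459 bp upstream of its start site and 41 bp from that of Snap24. With a 250 bp window, or with each peak given only to its nearest start site, CG8478 had no promoter peak.

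The remaining genes of that list with a promoter peak were Rm62, AGO2 and Topors. Rm62, an RNA helicase gene, had 102.12, AGO2, an Argonaute gene, had 86.65, and Topors, a ubiquitin ligase gene, had 72.0. Those of AGO2 and Topors were in neither replicate's own list, as was the case for Chro. In the conservative list no promoter peak was found at Trl, Elba1, Elba2, Elba3, insv, M1BP, e(y)2, l(3)mbt, CG1603, Clamp or shep. In the optimal list e(y)2 had one and AGO2 had none, and in replicate 1's own list insv had one. The median over the 10 leading peaks of that list was 149.56, against 142.23 for all promoter peaks, which include lower peaks of the same genes.

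**Figure D5:**
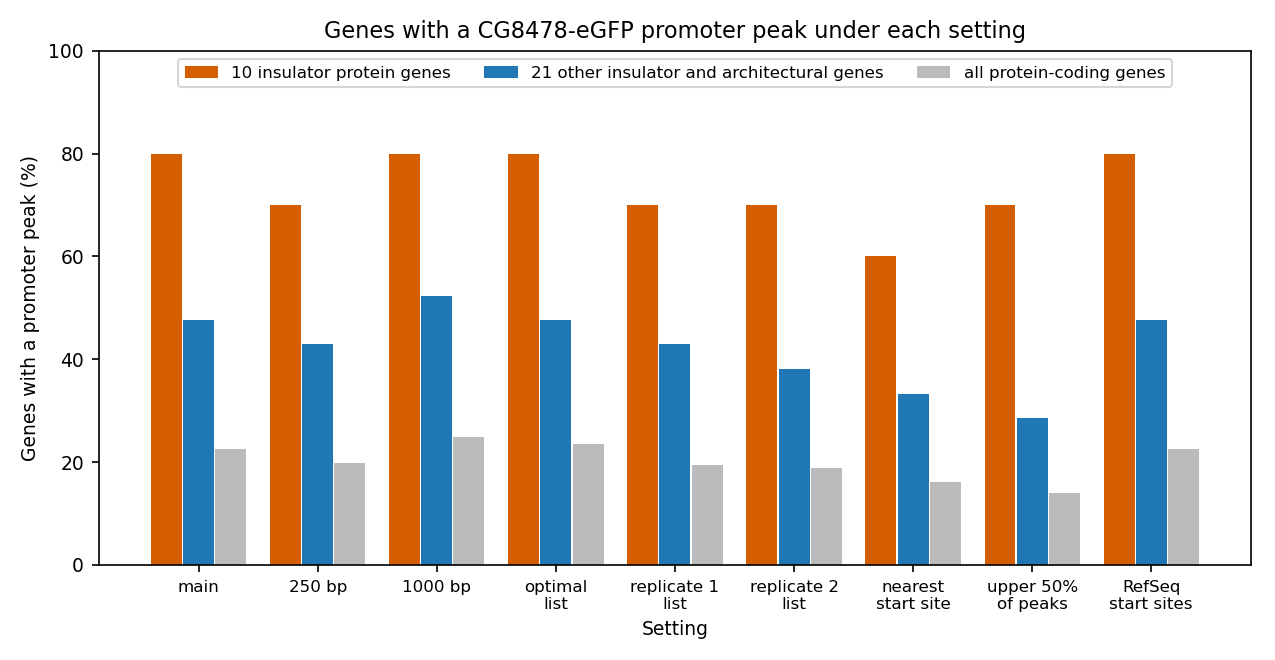
Percentage of genes with a promoter peak under each way of counting, for the 10 insulator protein genes (orange), the 21 other listed genes with CG8478 included (blue) and all protein-coding genes (grey). The orange bars run from 60.0% to 80.0%, the blue bars from 28.6% to 52.4% and the grey bars from 14.0% to 24.8%.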

How the data were processed

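Per the file headers, the authors called peaks in build dm6 from the replicates' alignments and that of 1 control. Which aligner and which peak caller were used is not given in the sources used here. The deposited signal of each peak and of its 2 inputs is the peak caller's value, with no stated scale. The authors deposited a −log10 q-value per peak and, as a score, the −log10 of the global IDR, whose lowest value in the conservative list was 2.0. The conservative list was therefore taken as thresholded at an IDR of 0.01, and the replicates' own IDR values were read against the same threshold. The optimal list is not a cut of the between-replicate IDR at that value. It holds the Ibf1 entry with an IDR of 0.016 and lacks the third pita peak with 0.00155.

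Of entries that share both ends only the one with the higher signal was used, and only those on the 7 main arms. The lists then held 2904 (conservative), 3101 (optimal), 2520 (replicate 1) and 2225 (replicate 2) peaks. Start sites came from Ensembl release 115, without transposable elements, and motif windows were centred on the summit or on the gene's first start site. A percentile is the share of promoter peaks with a lower signal. No test was made, since 1 group of 2 replicates gives no contrast. The Wilson interval covers counting error only. The members, lists and motifs were chosen with earlier results of these data known. All 10 members were named, with genes sharing their peaks, and all 21 other listed genes. Alternatives were other windows, lists, overlaps, motif windows and start sites. Peak assignment and motif search were tested on simulated data. The work used pandas 2.3.3 and NumPy 2.4.6 under Python 3.11.15, with matplotlib 3.10.9 for plots and SciPy 1.17.1.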

Additional observations from a re-analysis of the deposited data

How the results depend on the processing

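The count of 8 bound members was 7 with a window of 250 bp, against 19.8% of protein-coding genes, and 8 with 1000 bp, against 24.8%. With the nearest start site only the count was 6, against 16.2%. Without either replicate it was 7 (lowest and highest 7), against 18.8% to 19.5% of protein-coding genes and 8 to 9 of the 21 other listed genes. Among the upper 50% of peaks by signal 14.0% of protein-coding genes and 6 of the other listed genes had a promoter peak. The median percentile of the 7 leading peaks among promoter peaks was 70.8. It ran from 65.6 without replicate 1 to 72.2 without replicate 2, in both cases over 6 peaks, since Chro had none. The 6 leading peaks other than that of Chro had a median of 73.8 in the conservative list. These are not all the same peaks. In replicate 2 the highest pita peak was the one near Dcp-1, at 131.15, and its leading peak had 125.67. The members present in both replicates' lists numbered 6 instead of 7 when at least 50% of the conservative peak had to overlap, with Cp190 lost. The DRE core was in the peaks of 5 genes, which are 4 leading peaks, with 50, 100 and 150 bp to either side of the summit. It was in the peaks of 6 genes when 7 of its 8 letters were enough. With 50 bp, motif 7 was in 1 leading peak instead of 2, and the Su(Hw) core and the E-box in 0 instead of 1 each. With 150 bp, GAGAG was in 1 instead of 0 and TCAGT in 5 instead of 3. Shares over all promoter summits are given here only for exact matches with 100 bp to either side. The motif counts under other settings therefore have no background beside them, and nothing is read from their changes. RefSeq start sites, an alternative chosen after seeing the data, gave 8 members and 22.5% of genes. Of 22 alternative percentiles of single members, 6 moved by more than the standard deviation of the replicates' values, all of them lower without replicate 1 (55.1 to 70.8). Ibf1 and Ibf2 are 1 shared peak among them, and the pita value is that of its peak near Dcp-1. That standard deviation rests on the 2 replicates' values, which include the value without replicate 1, so it is a weak yardstick. The lists also differ in length, with 2577 promoter peaks in the conservative list, 2303 in replicate 1's and 2040 in replicate 2's. A lower percentile in the shorter list therefore need not mean a weaker peak, and the part of list length was not tested. The move of mod(mdg4), from 82.5 to 70.0, was smaller than the distance between its replicates (84.1 and 70.0). So was that of Ibf1 and Ibf2, from 64.5 to 60.1, with replicates at 66.3 and 60.1. The percentile of Chro, which has no replicate values to set it against, was 17.4 in the optimal list against 14.8 in the conservative list. The cause was not tested. No paired analysis was possible because there is 1 group and no result comes from a test.

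The depth of the libraries is unknown, so no limit of detection can be given for su(Hw) and ZIPIC. The signal has no stated scale, and the replicates were not normalized to each other here.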
